A study of Mus musculus with 8 samples.

Results

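Cones are the photoreceptors of daylight and colour vision, and their light response is carried by proteins that differ in part from those of rods. This account covers 5 genes of that response, chosen by name from a table of 1802 genes. They are Opn1sw (the short-wavelength cone opsin), Arr3 (cone arrestin), Pde6h (the inhibitory subunit of the cone phosphodiesterase), Gnb3 (the transducin beta subunit of cones) and Gngt2 (the transducin gamma subunit of cones). All 5 were listed. Their selection was made with their values in view, so the values below are a description and carry no test.

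The data came from single-cell RNA sequencing of mouse retina dissociated with papain, with 3 libraries from animals of genotype Control (titled WT) and 5 of genotype ABCA1KO (titled KO). ABCA1 moves cholesterol and phospholipid out of cells onto apolipoproteins. The labels do not give the age or strain of the mice, the part of the gene deleted, the cells in which it was deleted, or whether each library was a separate animal. The authors' deposited table compares all KO cells with all WT cells and holds no value per library and no error, cell number or depth, so no value here can be set against the spread between libraries. For Abca1 itself the authors' deposited table lists a higher value in KO (0.0294 on a natural-log scale, adjusted p = 4.49e-05). KO therefore means cells of the libraries labelled KO, whose genotype these values do not check.

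In a cone, light turns an opsin into an active form that switches on transducin, a G protein of alpha, beta and gamma subunits. Transducin alpha then lifts the inhibitory subunits off the phosphodiesterase, cyclic GMP falls, and cation channels in the outer segment close. Arrestin binds the phosphorylated opsin and ends the signal. Cones are a small minority of the photoreceptors in the mouse retina, and many mouse cones make both the short- and the medium-wavelength opsin. Gnb3 is also made by ON bipolar cells, so it marks cones less strictly than Arr3 or Pde6h.

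The genes lie on chromosomes 6, 11 and X of GRCm38, and all are protein coding in the GENCODE annotation. On chromosome 6 are Opn1sw (29376671 to 29388468, minus strand), Gnb3 (124834240 to 124840275, minus strand) and Pde6h (136923832 to 136968865, plus strand). Gngt2 lies on chromosome 11 (95837216 to 95845734, plus strand) and Arr3 on chromosome X (100605497 to 100618493, plus strand). None of the 30-base words in the last 300 bases of their annotated transcripts occurred in a transcript of another gene, with 271 such words for Gngt2 and 1334 for Arr3, so those ends are unique among annotated transcripts. The spans of 3 members overlap a gene on the opposite strand: Calu for Opn1sw, Abi3 for Gngt2 and Arhgdib for Pde6h. Whether counting used the strand is not given in the sources used here. Of these 3 neighbours the authors' deposited table lists Arhgdib, at 21.3% of KO and 24.2% of WT cells above 0. By share that is opposite to Pde6h, whereas the log difference of Arhgdib is positive (0.00811 in the authors' deposited table, adjusted p = 2.61e-220), as is that of Pde6h.

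The promoters of 3 members are shown as background, because the retinal factors known to bind cone promoters have recognisable letters. A link between these letters and the values in KO was not tested. RefSeq sequences of GRCm38.p6 held a window of 250 bases before to 50 after the start for Opn1sw (chr6:29380464-29380763, minus strand), Arr3 (chrX:100605247-100605546, plus strand) and Pde6h (chr6:136954273-136954572, plus strand). Capitals mark AGGTCA, a core motif of nuclear receptors, TAATCC, the core bound by Crx and Otx2, and the shorter TAATC, each on both strands. The windows of Opn1sw and Pde6h lie inside the GENCODE spans of these genes, whose outermost starts are farther upstream, and that of Arr3 surrounds its GENCODE start. TAATC was added after the sequences were seen, and any TAATCC would contain it.
Opn1sw: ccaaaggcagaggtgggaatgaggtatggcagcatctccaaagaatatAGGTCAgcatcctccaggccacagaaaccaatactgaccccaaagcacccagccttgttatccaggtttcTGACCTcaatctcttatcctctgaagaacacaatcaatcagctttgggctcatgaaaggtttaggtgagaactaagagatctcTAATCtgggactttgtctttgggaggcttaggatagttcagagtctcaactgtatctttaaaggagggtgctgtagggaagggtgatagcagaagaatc
Arr3: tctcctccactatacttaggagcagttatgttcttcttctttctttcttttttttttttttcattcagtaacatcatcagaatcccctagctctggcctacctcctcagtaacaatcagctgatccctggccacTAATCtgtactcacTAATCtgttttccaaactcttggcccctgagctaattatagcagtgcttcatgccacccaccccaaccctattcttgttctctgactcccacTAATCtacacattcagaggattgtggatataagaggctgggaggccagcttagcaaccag
Pde6h: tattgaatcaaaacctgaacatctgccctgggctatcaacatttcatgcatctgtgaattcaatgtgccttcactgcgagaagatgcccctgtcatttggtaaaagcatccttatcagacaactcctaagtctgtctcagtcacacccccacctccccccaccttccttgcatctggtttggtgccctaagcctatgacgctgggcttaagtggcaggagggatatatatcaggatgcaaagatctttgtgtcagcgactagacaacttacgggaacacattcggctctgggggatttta
The windows differ in what they hold. Opn1sw has AGGTCA once on each strand and TAATC once, Arr3 has TAATC 3 times, and Pde6h has none of the letters searched. TAATCC was in none of these windows. Over all 32851 windows, 16.3% hold AGGTCA, 22% hold TAATC and 7.06% hold TAATCC on either strand.

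All 5 cone genes had higher values in KO cells than in WT cells. With calls made where the adjusted p was below 0.05, the authors' deposited table has 5 of 5 higher and 0 lower. Of all its 1802 genes, 69.1% were called higher and 24.1% lower (93.2% in either direction), so the direction alone does not set these genes apart. The 5 were also called higher at an adjusted p under 0.01 (68.3% of all genes), with a Benjamini-Hochberg adjustment over 2000 features (74.1%) and when read from the median gene (45.9%). The Benjamini-Hochberg outcome follows from the stricter deposited adjustment. The quantity compared is the deposited difference between all KO and all WT cells (KO minus WT), taken as natural log and called a log difference. Whether logs were averaged over cells, or the log was taken of an average, is not given in the sources used here. Because the values behind the log difference appear to be batch-integrated, it is not a fold change of expression.

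The sizes of the log differences placed the 5 genes near the top of the table. Arr3 is the highest of the 5 in the authors' deposited table (0.173), at rank 16 of 1802. Next the authors' deposited table places Pde6h at 0.132 (rank 22) and Gnb3 at 0.124 (rank 24). Last of the 5 in the authors' deposited table are the gamma subunit gene Gngt2 (0.0996, rank 46) and the opsin gene Opn1sw (0.0940, rank 51). Thus 2.83% of its genes, 51 in all, were at or above the lowest of the 5. The median gene was at 0.010 and the upper quartile at 0.0289.

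The other measure in the table is the percentage of cells whose value is above 0. For Opn1sw the authors' deposited table gives 76.4% in KO and 46.5% in WT. Pde6h has 70.5% in KO and 44.4% in WT according to the authors' deposited table. Gngt2, also from the authors' deposited table, has 72.9% and 47.4%. These 3 genes were the lowest of the 5 in WT, and they gained most in KO. The 2 genes with the highest WT shares in the authors' deposited table were Gnb3 (76.3% in KO, 53.5% in WT) and Arr3 (72.2% and 51.9%). With cones a rare cell type and WT shares this large, a value above 0 is not read here as the detection of a cone transcript. The number of cones in either genotype cannot be read from these shares, and more cones and more of these transcripts per cone cannot be told apart in a comparison of pooled cells.

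**Figure D1:**
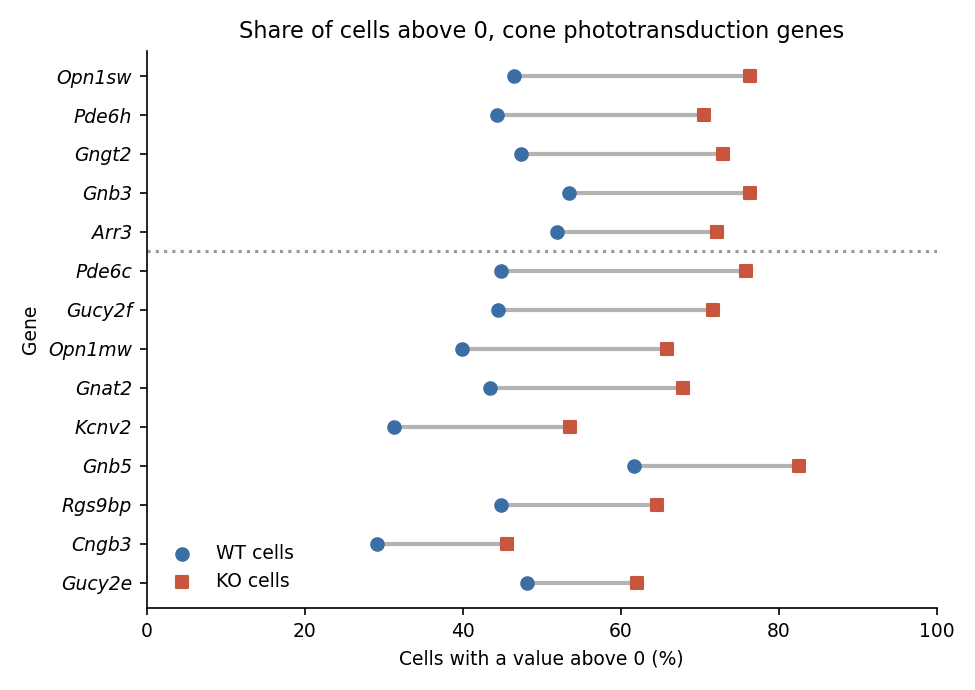
Percentage of WT cells (circles) and KO cells (squares) with a value above 0, for the 5 cone genes described (above the dotted line) and 9 other listed genes of cone phototransduction. Every KO share lies to the right of its WT share, and the 5 genes reach 70.5% to 76.4% in KO from 44.4% to 53.5% in WT.

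The ranks of the 5 genes by share were far more spread than their ranks by log difference. Opn1sw gained 29.9 percentage points, rank 96 of 1802. Pde6h gained 26.1 points (rank 304), Gngt2 gained 25.5 (rank 348) and Gnb3 gained 22.8 (rank 648). For Arr3 the gain was 20.3 points, rank 950, below the median gain of 20.8 over all listed genes. A larger share in KO was general, with 97.9% of all listed genes showing one. Relative to that median gain, Opn1sw stood at 9.1 points and Arr3 at -0.5.

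The measures ordered the 5 genes almost oppositely. Arr3 had the highest log difference and the smallest gain in share, and Opn1sw the lowest log difference and the largest gain. Of the 10 pairs that can be formed from the 5 genes, 8 stood in opposite order on the log difference and on the gain in share. Over all 1802 genes the order of the measures was weakly alike (a Spearman correlation of 0.27 across genes, which share cells and libraries and are not independent replicates). The listed p-values ranked the 5 by gain in share and not by log difference. Opn1sw had an adjusted p listed as 0, Pde6h of 8.71e-130, Gngt2 of 5.08e-93, Gnb3 of 1.56e-82 and Arr3 of 5.95e-25, all as the authors' deposited table prints them. A raw p of 0 was listed for 183 genes, so the value for Opn1sw is shared with many others. The unit of replication behind these p-values is not given in the sources used here, and if cells were the unit they do not measure the spread between libraries.

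**Figure D2:**
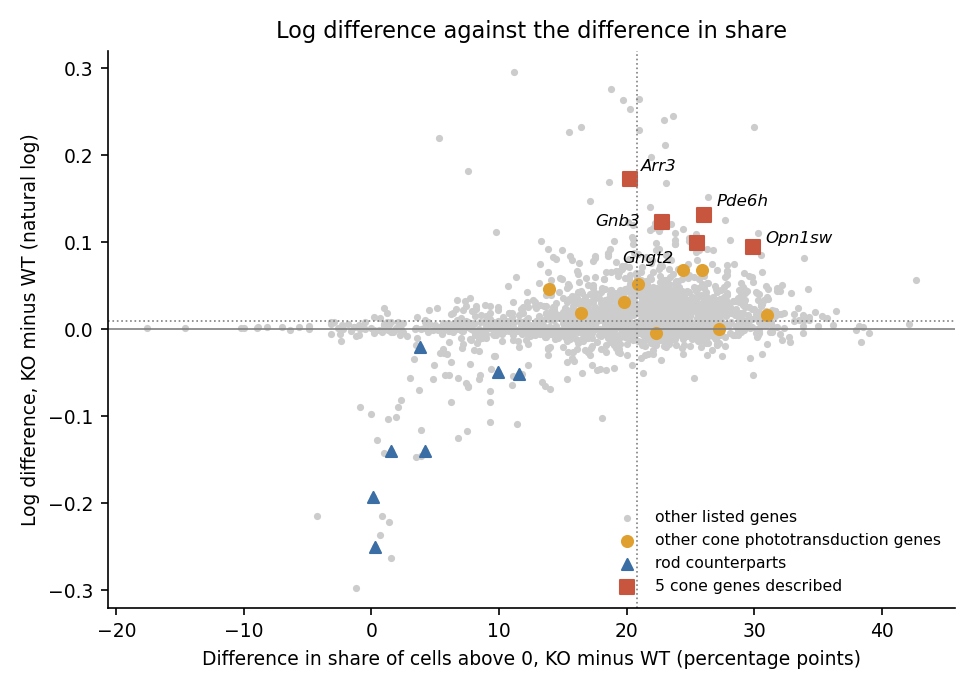
Log difference (natural log, KO minus WT) against the difference in the share of cells above 0 (percentage points), one point per listed gene, with dotted lines at the medians of all genes (0.010 and 20.8). Arr3 is the highest of the 5 cone genes and lies just left of the median gain, while Opn1sw is the lowest of the 5 and farthest right.

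Genes with a like share of WT cells give a closer comparison, since the share and the log difference are related in this table. Within 5 percentage points of the WT share of Arr3 there were 252 other genes, with a median log difference of 0.0175, and 1 of them was above Arr3. For Pde6h, 7 of 737 such genes were above it, and for Gnb3, 4 of 178. Among the genes like Gngt2, 16 of 558 had a higher log difference, and among those like Opn1sw, 19 of 619. Each of the 5 was therefore in the top 3.07% of its neighbours by log difference. Their choice was made with these log differences in view, and they stood near the top of all listed genes. High places among these neighbours largely restate that choice and are no separate finding. By gain in share the same neighbours placed the 5 genes differently. Of the neighbours, 5.17% were above Opn1sw, 21.8% above Pde6h, 23.1% above Gngt2, 32.0% above Gnb3 and 56.3% above Arr3. Over the 402 genes whose WT share ran from that of Pde6h to that of Gnb3, the calls of the authors' deposited table were higher for 74.1% and lower for 20.1%.

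**Figure D3:**
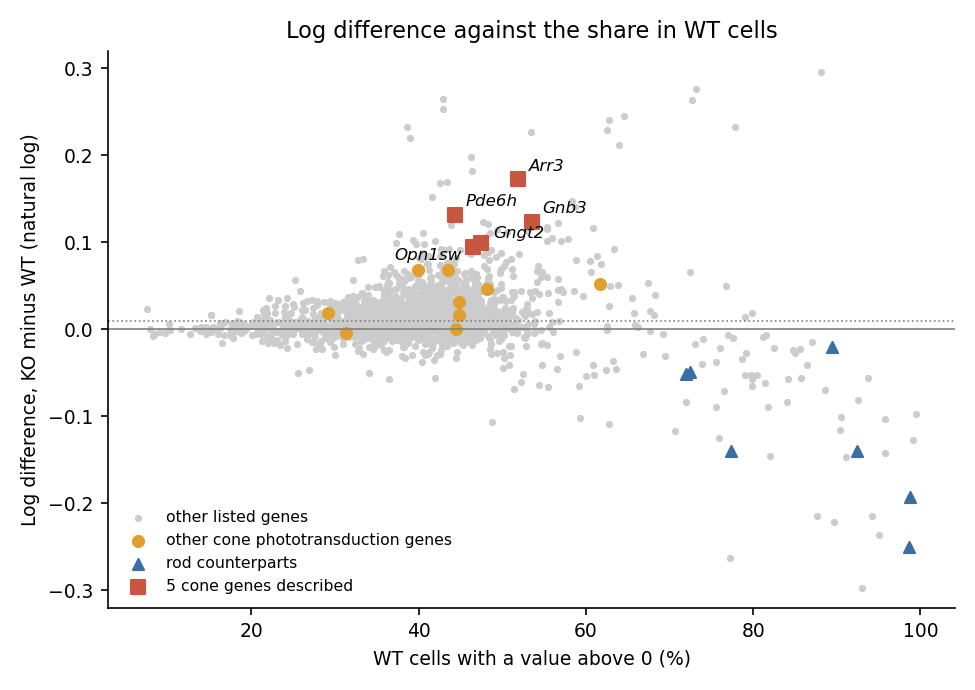
Log difference (natural log, KO minus WT) against the percentage of WT cells with a value above 0, one point per listed gene, with the median of all genes as a dotted line. The 5 cone genes lie at 0.0940 to 0.173 at WT shares of 44.4% to 53.5%, and the 7 rod counterparts shown lie below 0 at shares of 72% or more.

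The other listed genes of cone phototransduction had smaller log differences than the 5 genes. The 5 were chosen with their values in view, so a smaller value elsewhere on the list is no finding about those genes. The list also holds genes not confined to cones, such as Kcnv2, a gene of rods and cones. The share of higher calls among these other genes was near that of all listed genes. Of 20 genes on the list of cone phototransduction, the authors' deposited table holds 14, of which it calls 12 higher and 1 lower and leaves 1 without a call. Without the 5 genes above it holds 9 of 15, with 7 higher calls, 1 lower and 1 gene not called, beside 69.1% of all listed genes called higher and 24.1% lower. The median log difference of those 9 was 0.0310, against 0.124 for the 5 and 0.010 for all listed genes. Another 6 genes were not listed (Cnga3, Grk1, Guca1a, Guca1b, Rgs9 and Slc24a2), which does not show that they did not differ.

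Among the visual pigments, the medium-wavelength opsin Opn1mw was called higher beside Opn1sw. The authors' deposited table gives Opn1mw a log difference of 0.0685 and shares above 0 of 65.8% in KO and 39.9% in WT. Both cone opsins thus lay above the median gene on both measures, with gains of 25.9 and 29.9 percentage points.

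All 3 subunits of cone transducin were called higher, as were 69.1% of all listed genes, so the calls do not set them apart. For the alpha subunit gene Gnat2 the authors' deposited table gives a log difference of 0.0678, with shares of 67.9% in KO and 43.5% in WT. That is lower than the log differences of its partners Gnb3 and Gngt2, while its gain of 24.4 points lay between theirs.

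The subunits of the cone phosphodiesterase were alike in WT share and far apart in log difference. Pde6c, the catalytic subunit that Pde6h inhibits, stands at 0.0162 in the authors' deposited table, against 0.132 for Pde6h. Yet the authors' deposited table gives Pde6c the largest gain in share of the 14 listed genes, from 44.8% in WT to 75.8% in KO. The WT share of Pde6h was 44.4%.

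Other genes of signal shut-off, cyclic GMP synthesis and the channels had log differences below those of the 5. Gnb5, a beta subunit that partners the GTPase-accelerating protein RGS9, was called higher (0.0526 in the authors' deposited table), as was Rgs9bp, which anchors that complex (0.0310). The guanylate cyclase genes, whose products remake cyclic GMP, stood apart from each other, with Gucy2e at 0.0462 and Gucy2f at 0.000110 in the authors' deposited table. Gucy2f nevertheless gained 27.2 points in share and Gucy2e 13.9, the smallest gain of the 14. Among the channels, Kcnv2, a potassium channel subunit of rods and cones, was the single gene called lower (-0.00381 in the authors' deposited table). By share Kcnv2 went the other way, from 31.3% of WT cells to 53.6% of KO cells. That gain of 22.3 points lay above the median gain of 20.8. The call was made on the adjusted p, and the sign of the small log difference only set its direction. The cone cyclic nucleotide-gated channel subunit Cngb3 (0.0187) has an adjusted p of 1 in the authors' deposited table and was not called. By log difference Kcnv2 and Gucy2f lay below the median gene, so both count as lower once log differences are read from that median.

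Rod forms of the same components were mostly called lower in KO. Of 9 cone and rod pairs considered, 6 had both genes listed, and in all 6 the authors' deposited table has a positive log difference for the cone gene and a negative one for the rod gene. The calls of the authors' deposited table were higher for the cone gene in 5 of these and lower for the rod gene in 5. Neither Cngb3 nor Cngb1 was called. Beside these counts, 69.1% of all listed genes were called higher and 24.1% lower. Cone arrestin Arr3 (0.173) stood against rod arrestin Sag (-0.192) in the authors' deposited table. For transducin, Gnb3 (0.124) stood against Gnb1 (-0.0209) and Gngt2 (0.0996) against Gngt1 (-0.250) in the authors' deposited table. Outside the 5 genes, Gnat2 (0.0678) stood against Gnat1 (-0.140) and Pde6c (0.0162) against Pde6b (-0.0494) in the authors' deposited table. Pde6g, the rod partner of Pde6h, was not listed.

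**Figure D4:**
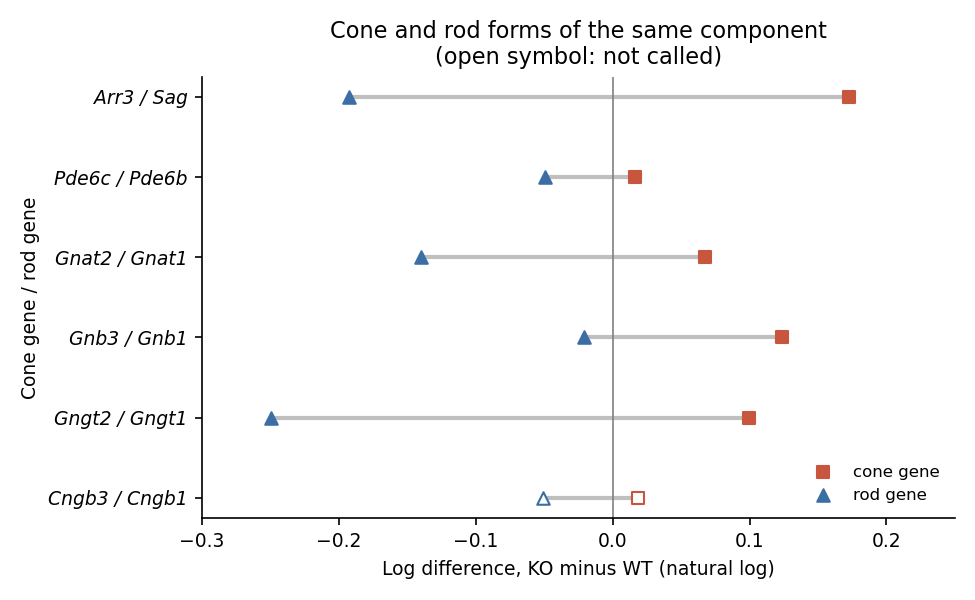
Log difference (natural log, KO minus WT) of the cone form (squares) and rod form (triangles) of each component for the 6 pairs with both genes listed, with open symbols for genes not called. Every square lies right of 0 and every triangle left of 0, and the gap is widest for Arr3 and Sag and for Gngt2 and Gngt1.

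The cone and rod genes did not overlap in how many WT cells were above 0, so the pairs are not a like-for-like comparison. The 7 listed rod counterparts of these pairs had WT shares of 72% to 98.7% in the authors' deposited table, whereas no gene of the cone list passed 61.7%. At WT shares of 72% or more the authors' deposited table lists 63 genes and calls 76.2% of them lower. With the rod and shared photoreceptor lists left out, it calls 71.4% of the remaining 49 lower. Gains in share were 0.1 to 11.6 points for the rod counterparts and 16.4 to 31.0 points for the listed cone partners. A WT share that is already high leaves little room for a gain. Over the 63 genes at WT shares of 72% or more the median gain was 6.1 points, and over the remaining 49 it was 6.8. The lack of overlap in gains is therefore not read as a difference between cone and rod genes. The part of the WT share in the contrast between cone and rod genes was not tested further.

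Markers of bipolar and amacrine cells had medians near that of the cone markers, and rod markers lay on the other side of 0. The counts that follow stand beside 69.1% of all listed genes called higher and 24.1% lower, and nothing is called particular to a list. Of 15 listed bipolar markers the authors' deposited table calls 13 higher and 1 lower, and their median log difference was 0.0627. It calls all 8 listed amacrine markers higher, with a median of 0.0736. The 12 listed cone markers had 11 higher calls and 0 lower, and a median of 0.0682, which was 0.0325 for the 7 that remained without the 5 genes. Smaller medians were found for horizontal cells (0.0255, with 7 of 7 markers called higher) and Müller glia (0.0231, with 11 of 13 higher and 2 lower). Ganglion cell markers were split by the sign of the log difference, 3 called higher and 2 lower. Their median was 0.00955, close to that of all listed genes (0.010). By share they were not split: all 5 gained in KO, by 23.8 to 32.1 points. Their median gain was 26.7 points, against 20.8 over all listed genes. Of the 14 rod markers counted, some of which cones also make, 13 were called lower and 0 higher, with a median of -0.140. Called examples from these lists in the authors' deposited table were Pcp2 (0.125), Gng13 (0.122) and Prkca (0.121) for bipolar cells. These 3 had the largest log differences of the bipolar list, which ran from -0.0264 to 0.125. They are close to Gnb3 (0.124), also a gene of ON bipolar cells, but to Pde6h (0.132) as well. The part of these cell types in the values of the 5 genes was not tested.

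**Figure D5:**
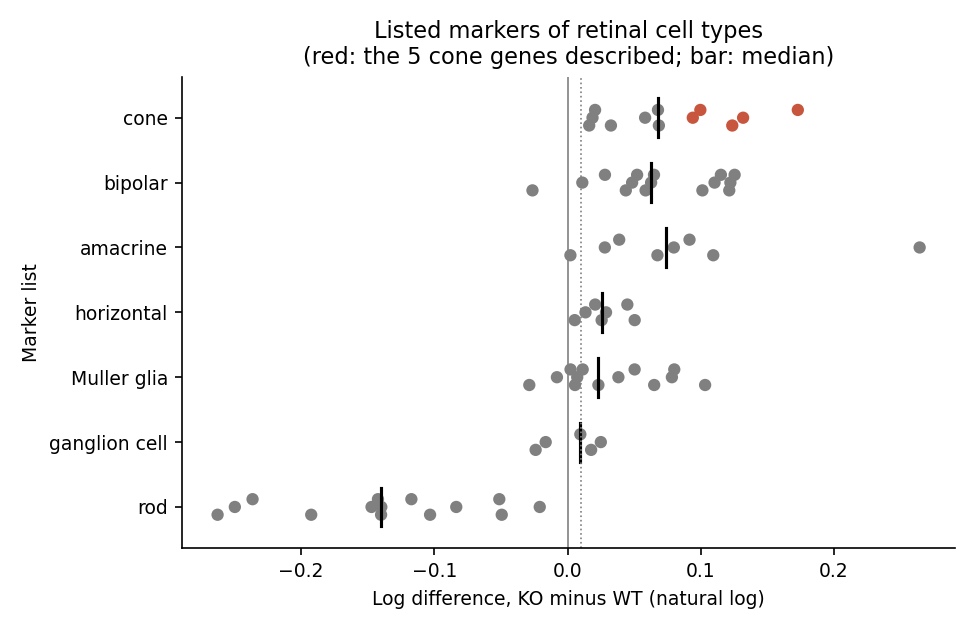
Log difference (natural log, KO minus WT) of each listed marker of 7 retinal cell types, with the 5 cone genes in red, list medians as bars and the median of all genes as a dotted line. Cone, bipolar and amacrine medians lie between 0.0627 and 0.0736, and the rod median lies at -0.140.

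Transcription factors of photoreceptors had more lower than higher calls. Of 17 looked for, the authors' deposited table holds 10, with 2 called higher, 6 lower and 2 without a call, beside 69.1% and 24.1% of all listed genes. By share all 10 nevertheless gained in KO, with a median gain of 20.55 points against 20.8 over all listed genes, and no difference from the cone genes was tested. The thyroid hormone receptor gene Thrb, which directs the medium-wavelength opsin, was called higher at 0.0156, and Rora at 0.0231, in the authors' deposited table. Crx (-0.0293) and Otx2 (-0.0264), the homeodomain factors of both photoreceptor types, were called lower in the authors' deposited table. So were Rorb (-0.0328), a receptor needed for photoreceptor development, and the rod factor Nrl (-0.0836) in the authors' deposited table. Rxrg, Neurod1, Nr2e3, Sall3, Prdm1, Nr1d1 and Samd7 were not listed. Among 12 listed genes that rods and cones share, the authors' deposited table calls 3 higher, 8 lower and leaves 1 uncalled, and their median was -0.103. Some of these genes, among them Rp1, Pdc and Rom1, are also counted as rod markers above, so these counts overlap and are not separate results.

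Some genes outside the cone cascade stood near the 5 in rank, though not always in log difference. Likeness was the sum of the differences in percentile rank over the log difference, the KO share and the WT share, so it rests on 2 pooled groups and says nothing of shared function. The closest of all was Tkt, the pentose phosphate enzyme transketolase, to Gnb3 (a sum of 2.08). Tkt has 0.113 as its log difference in the authors' deposited table, and shares of 75.4% in KO and 52.9% in WT. Dhx32 and Ptgds, which encodes a prostaglandin D synthase, came next for Gnb3. Gngt2 was closest to Cplx3, a complexin of ribbon synapses (a sum of 4.36), with Prkca and Cnn3 next. For Pde6h the closest were Ccng1 (a sum of 5.27), Pax6 and Celf3. Arr3 and Opn1sw had looser matches: Ank2 (7.46) and Prkca for Arr3, and Atp1b1 (8.07), Synpr and Lrtm1 for Opn1sw. None of these 13 different genes was another of the 5, and Prkca, Lrtm1, Atp1b1 and Pax6 stand on the bipolar and amacrine lists. In log difference the nearest gene of each member lay below it in the authors' deposited table. The gap was wide for Ank2 (0.114, against 0.173 for Arr3) and Ccng1 (0.0914, against 0.132 for Pde6h). It was smaller for Tkt (Gnb3 at 0.124), Cplx3 (0.0888, against 0.0996 for Gngt2) and Atp1b1 (0.0915, against 0.0940 for Opn1sw).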

How the data were processed

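Retinal cells of 3 WT and 5 KO libraries were sequenced from the 3′ end of transcripts on the 10X Chromium system, per the labels' protocols. The submitters' processing notes name Cell Ranger, DESeq2, Seurat 3.1.4 and the build GRCm38. The sources used here do not give their roles, the cell filters, the doublet handling, the integration or the test. A single table, the authors' comparison of KO with WT, was analysed. Its cluster column reads KO throughout, so its first group was taken as KO. Its header names no log base, and the deposited log differences were taken as natural log, the convention of that Seurat version. The deposited shares of cells above 0 are fractions and are printed as percent. Raw and adjusted p-values are those of the authors' deposited table, and their quotient was 2000 (within 0.001) in all 1554 rows where neither p was 0 nor the adjusted p 1. The adjustment was thus taken as Bonferroni over 2000 features, of which 198 were not listed. The highest raw p listed was 0.00938, so nothing is known of unlisted genes. A fixed feature set and the table's title point to batch-integrated values.

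Ranks, medians, counts and comparisons with genes of like WT share (within 5 percentage points) were computed with Python 3.11.15 and pandas 2.3.3, and figures were drawn with matplotlib 3.10.9. No test was run beside the authors' p-values. The named genes are the 5 members, the listed genes of the cone list, their rod counterparts, the 3 nearest genes of each member and up to 3 called genes of other lists. Some genes that this rule selects are left out of the named genes, pairs and marker lists and are not reported here. Further genes of the transcription factor list and unlisted genes were named after their values were seen. The members and lists were chosen with earlier results of these data known. Positions came from GENCODE (GRCm38), in which 1785 of 1802 symbols matched, and promoters from RefSeq (GRCm38.p6), which matched 3 of 5 members. A planned comparison of protein sequences was not made. The recomputed Benjamini-Hochberg adjustment was tested on simulated data.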

Additional observations from a re-analysis of the deposited data

How the results depend on the processing

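The log differences of the 5 genes stayed above 0 when read from the median of all listed genes or of genes of like WT share. The 5 were chosen with their values in view, and even the lowest, Opn1sw (0.0940), lay far above the medians subtracted (0.010 to 0.0183). Staying above 0 was thus fixed in advance and is no support for these differences. The 5 also stayed called higher at an adjusted p under 0.01. A p threshold cannot move a log difference, and a Benjamini-Hochberg adjustment over the same 2000 features cannot lose a Bonferroni call, so those settings say nothing of the size of the differences. Relative to the median gene, Arr3 stood at 0.163 and Opn1sw at 0.0839. Differences in share moved more. Arr3 reversed, from 20.3 percentage points to -0.5 relative to the median of all genes and -1.3 relative to genes of like WT share, since both medians exceed its gain. The other 4 genes kept a positive but much smaller gain. Relative to all genes and to genes of like WT share, Opn1sw went from 29.9 points to 9.1 and 7.4, Pde6h from 26.1 to 5.3 and 3.4, Gngt2 from 25.5 to 4.7 and 3.2, and Gnb3 from 22.8 to 2 and 2.2. No paired analysis was possible because the table holds no value per library, and leaving out a library was not run for the same reason. Depth is unknown here, so no limit of detection is given.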

Other observations

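The genomic neighbours of the 5 genes had lower log differences than the members themselves where they were listed. Since 97.2% of all listed genes lay below even Opn1sw, the lowest member, nearly any listed gene would. The values are therefore a description and no finding about these loci. Within 100000 bases of the members, 4 other genes were listed in the authors' deposited table, and 0 near Arr3 or Gngt2. Ccdc136, itself on the cone marker list and 7840 bases from Opn1sw on the opposite strand, stands at 0.0582 in the authors' deposited table, with shares of 64.2% in KO and 43.3% in WT. P3h3, which lies 813 bases from Gnb3 on the same strand, had 0.00934 in the authors' deposited table, beside 0.124 for Gnb3. Near Pde6h (0.132), Arhgdib had 0.00811 and Mgp 0.00101 in the authors' deposited table. These 4 genes were named after their values were seen.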
